A study of Mus musculus with 25 samples.

Results

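MicroRNA levels in 8 mouse mammary tumours of genotype Trp53fl/+ were set against those in 2 pools of normal mammary gland, 10 of the 25 one-colour arrays of the series. The tumours were chosen as those labelled Trp53fl/+ with no Met transgene. The series' design text names Cre beside Trp53 for these tumours, and the promoter that drives Cre is not given in the sources used here. The flox mark means that Cre can delete that Trp53 allele, and the plus sign marks the other allele as wild type. The normal pools were labelled Wild-Type, with no transgene. How many glands each pool held is not given in the sources used here. All samples came from female FVB mice, and no age is given. By pathology label, tumours 1, 7 and 8 were spindloid, tumours 5 and 6 intermediate, tumours 2 and 4 adenocarcinoma, and tumour 3 poorly differentiated adenocarcinoma. Nulliparous mice gave tumours 1, 3 and 5, multiparous mice tumours 6 and 7, and parity was not stated for 3 tumours. Pool 1 was multiparous and pool 2 nulliparous. The other 15 tumours, 7 labelled MMTV-Met and 8 labelled MMTV-Met with Trp53fl/+, entered the fit and 1 comparison between tumours. Nothing in the labels says that each tumour came from its own animal, and tumours 2 and 3 carry the same title number, as do tumours 4 and 8. The p-values therefore cover the variation among the samples at hand, which may be partly technical.

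A miRNA is a short RNA that guides a silencing complex to messenger RNAs, mainly through its seed, the stretch near its 5′ end that pairs with the target. Many miRNAs are made in few cell types, so that miR-1, miR-133 and miR-206 mark muscle, miR-143 and miR-145 smooth muscle, miR-126 endothelium and the miR-200 family epithelium. The normal mammary gland is a fat pad that holds epithelial ducts, vessels and stroma, and a tumour replaces much of that tissue. In bulk RNA such as this, fewer cells of a type and less RNA per cell cannot be told apart. Trp53 encodes p53, a transcription factor that acts as a tumour suppressor. The arrays hold no probe for its messenger RNA, so the deletion was not checked here.

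The mature sequences shown are those on which the results turn, taken from RefSeq on GRCm38.p6, with the seed, bases 2 to 8, in capitals. The first pair are muscle miRNAs that were far lower in the tumours. Then come miRNAs that were higher, then miRNAs that passed the test each followed by a relative that did not, and last members of the miR-200 family.
miR-133b-3p: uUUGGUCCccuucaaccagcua
miR-206-3p: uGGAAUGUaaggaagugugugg
miR-31-5p: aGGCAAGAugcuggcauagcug
miR-221-3p: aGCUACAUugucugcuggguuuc
miR-222-3p: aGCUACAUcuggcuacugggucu
miR-99b-5p: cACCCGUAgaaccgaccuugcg
miR-99a-5p: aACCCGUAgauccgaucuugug
let-7e-5p: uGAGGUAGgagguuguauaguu
let-7a-5p: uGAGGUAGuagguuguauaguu
miR-125a-5p: uCCCUGAGacccuuuaaccuguga
miR-125b-5p: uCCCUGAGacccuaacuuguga
miR-15b-5p: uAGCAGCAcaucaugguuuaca
miR-15a-5p: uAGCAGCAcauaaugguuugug
miR-29c-3p: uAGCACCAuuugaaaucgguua
miR-29a-3p: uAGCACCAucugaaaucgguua
miR-107-3p: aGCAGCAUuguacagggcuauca
miR-103-3p: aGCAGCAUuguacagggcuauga
miR-200b-3p: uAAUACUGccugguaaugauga
miR-200c-3p: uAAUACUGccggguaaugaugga
miR-141-3p: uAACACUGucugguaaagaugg
Each of the 6 pairs of relatives shares its seed, as do miR-221-3p and miR-222-3p, and miR-200b-3p and miR-200c-3p. Positions are counted from 1 at the 5′ end, with the base of the miRNA that passed the test first. The let-7e-5p and let-7a-5p sequences differ by G9U, miR-29c-3p and miR-29a-3p by U10C, and miR-107-3p and miR-103-3p by C22G. Of the 44 miRNAs that passed the test, 33 were matched to RefSeq by name.

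Several of those that passed come from shared stretches of the genome, and within each such stretch they moved the same way. The hairpins of miR-206-3p and miR-133b-3p lie at chr1:20679010-20682887 (plus strand), within the bounds of the non-coding gene Lincmd1. The miR-99b, let-7e and miR-125a stretch is chr17:17830194-17830879 (plus strand), within the bounds of Spaca6, a sperm protein gene. The miR-15b and miR-16-2 hairpins are at chr3:69009772-69009996 (plus strand), within Smc4, a condensin subunit gene. Those of miR-25 and miR-93 are at chr5:138165321-138165610 (minus strand), within Mcm7, a gene of the replicative helicase. The miR-18a and miR-20a hairpins lie at chr14:115043851-115044263 (plus strand) and those of miR-221 and miR-222 at chrX:19146294-19146971 (minus strand), and the gene table gives no other gene over either. That table holds gene bounds, not exons.

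Levels are log2 values of the background-subtracted intensity after each array was divided by its 75th percentile over probes above background on all 25 arrays. Levels below a common floor were set to 3.60, so a change that starts from the floor may be larger than printed. Of 1122 mouse miRNAs, 330 were tested with limma on all 25 arrays, and the threshold was a Benjamini-Hochberg adjusted p of 0.05 over the 330. The Trp53 tumour arrays detected between 252 and 309 mouse miRNAs and the normal arrays between 274 and 331. The 2 pools correlated at r = 0.98 over miRNAs, with 18 miRNAs at least 2-fold apart. The tumours that share a title number differed by a median of 0.36 (tumours 2 and 3) and 0.30 (tumours 4 and 8) on the log2 scale, within the range of the other 26 pairs of Trp53 tumours, 0.15 to 0.47.

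In the Trp53 tumours 44 of the 330 miRNAs passed the test, 13.3% of those tested. There were 18 higher (5.45%) and 26 lower (7.88%) than in the normal pools, and 34 of the 44 changed at least 2-fold, 14 higher and 20 lower. In 43 of the 44 the tumours and pools did not overlap, with miR-31-5p the exception, and over all miRNAs tested 26.1% did not overlap. The filter on detection kept 10 miRNAs through the pools alone, of which 5 passed as lower, and 60 through tumour arrays alone, of which 1 passed as higher. Being kept through 1 side alone favours a change towards that side, so these calls carry less weight. Among the 5 were miR-206-3p, miR-133a-5p and miR-499-5p. The median change was 0.09 over all miRNAs tested and 0.28 over the 160 detected on all arrays. Scaling to the percentile over all mouse probes brought that second median to 0.05 and the split to 7 higher and 31 lower. With RMA-type values the median was 0.14 and the split 9 higher and 29 lower, and with normexp background correction it was 0.38, with 14 higher and 14 lower. Slides 1 and 3 each held 1 pool and at least 1 Trp53 tumour, and the sign of all 44 was the same within both. For the 43 without overlap the sign could not have differed, so this is no check on slide. With slide as a block 39 miRNAs passed, and with scan date as a block 36. Of the miRNAs described here, miR-31-5p, miR-221-3p, miR-222-3p, miR-25-3p, miR-677-3p, miR-26a-5p, miR-203-3p and miR-486-3p lost their call under both blocks, miR-21-5p under slide alone, and miR-16-5p, miR-18a-5p, miR-20a-5p and miR-99b-3p under scan date alone. The number that passed fell to 20 (4 higher, 16 lower) without pool 1 and to 26 (7 higher, 19 lower) without pool 2. In the plot of the largest changes, miR-133b-3p had both the largest fall and the widest interval.

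**Figure D1:**
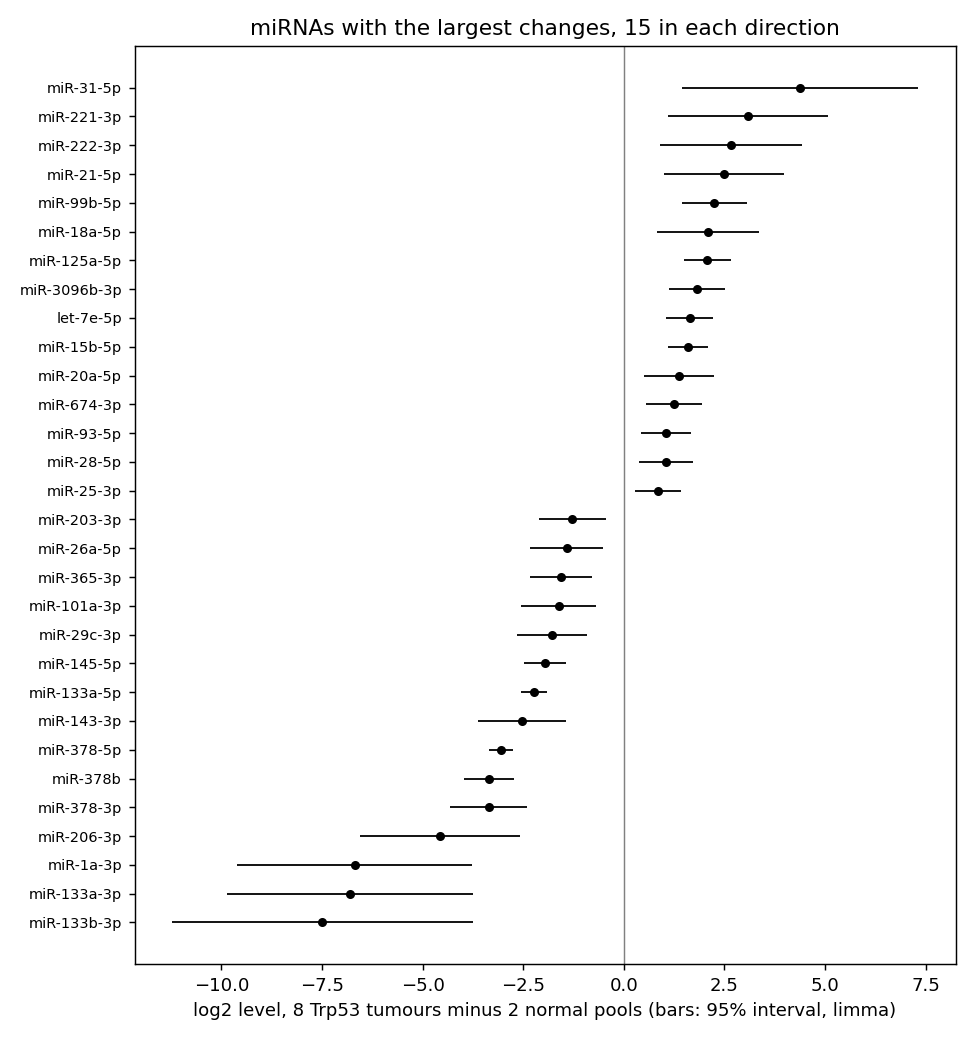
Difference in log2 level, 8 Trp53 tumours minus 2 normal pools, for the 15 miRNAs with the largest change in each direction among those that passed the test; points are differences and bars 95% intervals from limma. The values run from 4.37 for miR-31-5p down to -7.49 for miR-133b-3p, and no interval crosses 0.

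Skeletal muscle miRNAs were much lower in the Trp53 tumours, and 2 of the 8 tumours kept a part of them. All 6 tested members of a list of 7 fell, with a median change of -5.63. Of these, miR-206-3p, miR-133a-5p and miR-499-5p were tested only because both pools detected them, which favours a fall, so the count and median describe the list and support nothing further. The level of miR-133b-3p, which is made in skeletal muscle with miR-206, was 10.09, 3.60, 3.60, 9.21, 3.60, 3.85, 3.60 and 3.60 in Trp53 tumours 1 to 8, against 12.43 and 12.84 in the normal pools. Tumours 1 and 4 were thus the high ones and 5 of the 8 were at the floor. It fell by 7.49 on the log2 scale (95% interval -11.23 to -3.76, limma adjusted p = 0.00585). The same tumours stood out for miR-1a-3p, found in both skeletal and cardiac muscle, with 8.28 in tumour 1 and 7.73 in tumour 4, the floor in the other 6 tumours, and 10.96 and 11.81 in the pools. It fell by 6.68 (limma adjusted p = 0.00165).

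The co-transcribed miR-133a-3p fell by 6.80 (limma adjusted p = 0.00217), with 9.02 in tumour 1 and 8.10 in tumour 4 against 11.43 and 11.84 in the pools. The level of miR-206-3p, a skeletal muscle miRNA, was 7.62 and 6.23 in tumours 1 and 4, at the floor in the other 6, and 8.75 and 9.24 in the pools, and it fell by 4.57 (limma adjusted p = 0.00165). Every tumour lay below both pools for these miRNAs. The other arm of miR-133a, miR-133a-5p, fell by 2.23 with 6 tumours at the floor. The heart and slow-muscle miR-499-5p was not detected in any Trp53 tumour and was 3.97 and 3.76 in the pools, at least 1.09-fold lower (limma adjusted p = 0.000229). Its change was 0.0624 with normexp background correction. With tumours 1 and 4 left out, a choice made after the data were seen, the 6 had a median change of -6.59. Leaving out the tumours that kept these miRNAs deepens the fall by construction, so it is no check on it. The summed log2 level of the list ran from 6.18 to 11.07 in Trp53 tumours, from 13.40 to 13.90 in the pools and from 6.18 to 11.04 in the other 15 tumours. How much striated muscle the pools and tumours 1 and 4 held was not tested. With either pool left out miR-133b-3p no longer passed.

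Fat miRNAs fell too, and here tumours 2 and 3, not 1 and 4, had the highest summed level. The sum is over intensities before the log. In tumours 2 and 3 most of it came from miR-193b-3p, the member that did not pass. Of the 4 members of an adipocyte list 3 fell, with a list median of -2.59, where 7.88% of all miRNAs tested passed as lower. The level of miR-378-3p, which is encoded in the metabolic coactivator gene Ppargc1b and rises in fat cell formation, lay between 4.98 and 6.16 in the Trp53 tumours with a median of 5.72, against 9.49 and 8.37 in the pools. All 8 tumours lay more than 2 log2 units below the lower pool. It fell by 3.36 (95% interval -4.32 to -2.40, limma adjusted p = 1.2e-05). Its other arm, miR-378-5p, was at the floor in 6 tumours, reached 4.11 in tumour 1, and was 7.17 and 6.31 in the pools, a fall of 3.05 (limma adjusted p = 1.37e-13). The related miR-378b fell by 3.34 (limma adjusted p = 9.69e-09). The brown-fat miR-365-3p was between 6.15 and 7.42 with a median of 6.93 in the tumours, against 8.73 and 8.28 in the pools, and fell by 1.57 (limma adjusted p = 0.0056). That call was lost without pool 1.

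The remaining member, miR-193b-3p, lies beside a miR-365 copy and did not pass. Its level was between 5.21 and 9.33 with a median of 7.09 in the tumours and 10.15 and 8.53 in the pools, so that tumours 2 and 3 reached pool 2. Its change was -2.13 (limma adjusted p = 0.159). The summed log2 level of the adipocyte list was 9.75 and 9.16 in tumours 2 and 3. It lay between 7.50 and 8.38 in the other Trp53 tumours and at 11.24 and 10.09 in the pools. Since miR-378 is also made in muscle, and the muscle miRNAs moved the same way, the part of muscle in this fall was not tested.

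Smooth muscle miRNAs were lower as well. Both tested members of a list of 4 smooth muscle and myoepithelial miRNAs fell, where 7.88% of all miRNAs tested passed as lower. The level of miR-143-3p, which keeps smooth muscle differentiated, lay between 4.16 and 5.46 with a median of 5.0 in the Trp53 tumours, against 7.49 and 7.44 in the pools. It fell by 2.52 (95% interval -3.61 to -1.43, limma adjusted p = 0.00164). Its cluster partner miR-145-5p was at the floor in 6 of 8 tumours and was 5.43 and 5.74 in the pools, and it fell by 1.96 (limma adjusted p = 4.5e-06). None of the tumours reached a pool for either.

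Of the 2 arms of miR-126, which is encoded in the endothelial gene Egfl7, only the dim one passed. The level of miR-126-3p was between 8.91 and 10.45 with a median of 9.56 in the tumours, against 11.04 and 10.73 in the pools. Every tumour was below both pools, and the change of -1.30 did not pass (limma adjusted p = 0.155). The level of miR-126-5p was at the floor in 6 tumours and 4.10 and 3.98 in the pools, a fall of 0.41 (limma adjusted p = 0.000936). That call was lost with the floor set 4 times lower or 2 times higher, and the change was 0.23 with normexp background correction. The mesenchymal list, miR-199, miR-214 and miR-10b, had none of its 5 tested members past the threshold. Its miR-10b-5p, a Hox-cluster miRNA, was between 4.84 and 6.85 with a median of 5.56 in the tumours and 7.72 and 7.82 in the pools (change -2.07, limma adjusted p = 0.0915), while miR-199b-5p changed by 0.20.

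**Figure D2:**
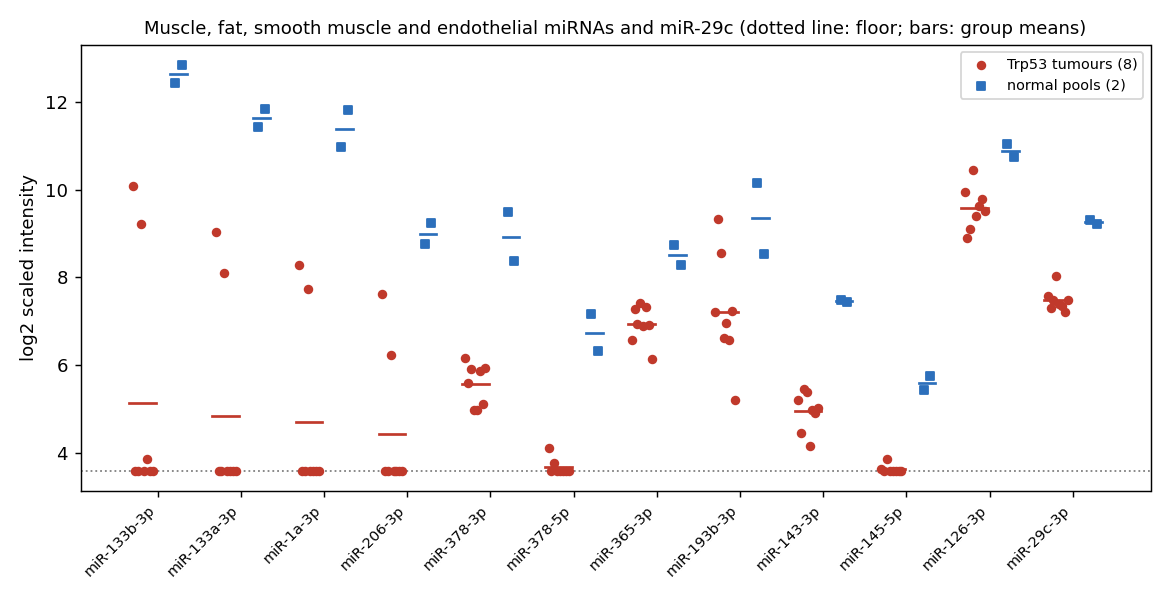
Level (log2 scaled intensity) of 12 miRNAs in each of 8 Trp53 tumours (circles) and 2 normal pools (squares), with group means as bars and the floor as a dotted line. Tumours 1 and 4 alone keep high miR-133b-3p (10.09 and 9.21), and all 8 tumours lie below both pools for miR-378-3p, miR-143-3p and miR-29c-3p.

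Among miRNAs with no single tissue of origin, miR-29c-3p, which represses collagen and other matrix genes, fell in every tumour by a similar amount. It lay between 7.21 and 8.03 with a median of 7.44 in the Trp53 tumours, against 9.31 and 9.22 in the pools. The tumours spanned less than 1 log2 unit and none came near the pools. The fall was 1.79 (95% interval -2.66 to -0.92, limma adjusted p = 0.00475), and was no longer past the threshold without either pool. Its other arm, miR-29c-5p, was at the floor in all 8 tumours and 4.25 and 4.19 in the pools, at least 1.4-fold lower. In contrast miR-29a-3p, 1 base from miR-29c-3p, was between 10.32 and 11.69 in the tumours and 11.12 and 11.17 in the pools, with a change of -0.05.

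The level of miR-101a-3p, known to repress the histone methyltransferase gene Ezh2, was between 3.60 and 4.54 with a median of 3.80 in the tumours, against 5.38 and 5.75 in the pools. It fell by 1.62 (limma adjusted p = 0.0172), and the call was lost without either pool. The abundant miR-26a-5p was between 8.41 and 9.94 with a median of 8.88 in the tumours, against 10.21 and 10.58 in the pools, and fell by 1.42 (limma adjusted p = 0.0331). Tumour 4 lay nearest to the pools, and the call was lost without either pool and without tumour 5 or 6. Its relative miR-26b-5p, named after its values were seen, fell by 1.20 (limma adjusted p = 0.0139), a call lost without either pool.

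The level of miR-107-3p, encoded in the pantothenate kinase gene Pank1, was between 6.95 and 7.82 with a median of 7.19 in the tumours, against 8.92 and 8.13 in the pools, and fell by 1.25 (limma adjusted p = 0.0102). Pool 1 was the higher, and the call was lost without it. The neural miR-128-3p was between 4.04 and 5.31 with a median of 4.17 in the tumours and 5.42 and 5.63 in the pools, a fall of 1.10 (limma adjusted p = 0.0161). Tumours 1 and 2 were the ones close to the pools, and leaving out either pool ended the call. Of the neural list 2 members were tested and only miR-128-3p passed, while the other changed by 0.08. Over all miRNAs tested 7.88% passed as lower. The keratinocyte miR-203-3p was at the floor in 7 tumours, 3.75 in tumour 2, and 5.10 and 4.70 in the pools, a fall of 1.28 (limma adjusted p = 0.0367), and that call did not hold without either pool or without tumours 1, 5, 6 or 7.

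Of 3 tested members of an erythroid list 1 passed as lower, miR-486-3p, where 7.88% of all miRNAs tested did. The list's median change was -0.12. Its summed log2 level ran from 7.60 to 11.81 in the Trp53 tumours, against 11.18 and 10.35 in the pools, so the list as a whole overlapped. The level of miR-486-3p was at the floor in all tumours and 3.76 and 3.68 in the pools, too near the floor for a fold (limma adjusted p = 0.0435, lost without pool 1 or any 1 of tumours 1, 3, 4, 6, 7 and 8). The other 4 that fell, also named after their values were seen, were miR-101c, miR-338-3p, miR-129-2-3p and miR-22-5p, by 1.10, 1.04, 0.94 and 0.70. In the pools the highest of these levels was 5.10, for miR-129-2-3p in pool 1, and the calls of miR-129-2-3p and miR-22-5p were lost without pool 1 and pool 2 in that order. Both miR-101c and miR-338-3p were at the floor in every tumour, at least 1.94-fold and 1.86-fold lower.

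Of a list of 6 tumour-associated miRNAs 4 rose in the Trp53 tumours, with large differences between tumours, and the list median was 2.58. Over all miRNAs tested 5.45% passed as higher. The level of miR-21-5p, which represses the tumour suppressor gene Pdcd4 and is high in many cancers, was 12.67, 11.32, 11.87, 13.49, 12.87, 13.52, 13.11 and 13.03 in Trp53 tumours 1 to 8, against 9.50 and 10.99 in the pools. Every tumour was above both pools, tumours 2 and 3 by the least, and pool 2 lay near tumour 2. It rose by 2.49 (95% interval 1.01 to 3.97, limma adjusted p = 0.022), a call lost without pool 1. With slide as a block the change was 2.19 (limma adjusted p = 0.0503).

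The largest rise was that of miR-31-5p, a miRNA of epithelial and mesenchymal cells whose level goes up in some cancers and down in others. It was 9.81, 3.60, 6.66, 9.61, 10.45, 9.50, 9.03 and 8.54 in Trp53 tumours 1 to 8, against 4.06 and 3.99 in the pools. Tumour 2 was at the floor, below both pools, and the other 7 were above them. It rose by 4.37 (95% interval 1.43 to 7.32, limma adjusted p = 0.0435). It passed under 7 of 29 alternatives, and not without either pool nor without any 1 of tumours 1, 4, 5, 6, 7 and 8. Its other arm, miR-31-3p, was not detected in either pool and at least 3.61-fold higher, with a limma adjusted p of 0.165.

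The co-transcribed miR-221-3p and miR-222-3p repress the cell cycle inhibitor p27 and are described as high in basal-like breast cancer. The level of miR-221-3p was between 5.69 and 9.38 with a median of 8.39 in the tumours, against 4.46 and 5.33 in the pools. Tumours 2 and 3 were the lowest, at 6.21 and 5.69, and all 8 were above both pools. It rose by 3.08 (95% interval 1.09 to 5.07, limma adjusted p = 0.0359). The level of miR-222-3p was between 4.45 and 7.87 with a median of 7.02 in the tumours, with tumours 2 and 3 again lowest at 4.78 and 4.45, against 3.82 and 4.08 in the pools. It rose by 2.66 (limma adjusted p = 0.0407). Neither call held without pool 1, pool 2 or any 1 of tumours 1, 5, 6, 7 and 8. The hypoxia-linked miR-210-3p was between 5.61 and 8.77 with a median of 7.23 in the tumours and 5.25 and 4.88 in the pools. All tumours were above the pools, and its change of 2.16 did not pass (limma adjusted p = 0.0915). Of the 6 listed, 0 passed without pool 1, 1 without pool 2, 1 without tumours 1 and 4, and 0 when arrays were scaled over all mouse probes. Without the intermediate tumours 0 of the 6 passed, with no detection filter 0, and without the spindloid tumours 1. With slide as a block 0 of the 6 passed, and with scan date as a block 1 passed, miR-21-5p. Under the slide block the change of miR-31-5p was 4.04 and that of miR-221-3p 2.94 (limma adjusted p = 0.115 and 0.0910).

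The miR-99b, let-7e and miR-125a cluster rose in all 8 tumours. The levels of miR-125a-5p and let-7e-5p varied little between tumours (SD 0.33 and 0.28), and that of miR-99b-5p varied more (SD 0.54). The level of miR-125a-5p, which represses the receptor genes Erbb2 and Erbb3, was 8.46, 8.15, 8.10, 8.47, 8.98, 8.78, 8.82 and 8.83 in Trp53 tumours 1 to 8, against 6.42 and 6.58 in the pools. The tumours spanned less than 1 log2 unit, and all were well above the pools. It rose by 2.07 (95% interval 1.49 to 2.65, limma adjusted p = 9.39e-06). The level of miR-99b-5p, of a family that represses the growth kinase gene Mtor, was between 6.85 and 8.41 with a median of 7.58 in the tumours, against 5.29 and 5.52 in the pools, and rose by 2.25 (95% interval 1.44 to 3.05, limma adjusted p = 0.000229). The level of let-7e-5p, whose family represses Ras genes and Hmga2, was between 9.23 and 10.09 with a median of 9.82, against 7.88 and 8.40 in the pools, and rose by 1.63 (95% interval 1.05 to 2.21, limma adjusted p = 0.000229). These 3 passed under all 30 alternatives tried. The dim other arm miR-99b-3p, named after its values were seen, was at the floor in both pools and at least 1.22-fold higher (limma adjusted p = 0.047), a call that did not hold without either pool or without tumour 1, 5, 6 or 7.

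The near-identical miRNAs made elsewhere in the genome did not move with them. The level of let-7a-5p was between 11.27 and 11.90 in the tumours and 11.23 and 11.67 in the pools (change 0.03), and let-7e-5p was the 1 of 9 tested let-7 miRNAs that passed. The level of miR-99a-5p was between 7.11 and 8.52 with a median of 7.76 in the tumours, against 8.60 and 9.20 in the pools, a change of -1.16 that did not pass (limma adjusted p = 0.221). Within each array the distance between miR-99b-5p and miR-99a-5p did not overlap between tumours and pools, and it shifted by 3.41 towards miR-99b-5p. The level of miR-125b-5p was between 7.51 and 10.80 with a median of 10.09 in the tumours, tumour 2 being the low one, and 9.10 and 9.94 in the pools, a change of 0.27. The distance of let-7e-5p from let-7a-5p shifted by 1.60 and that of miR-125a-5p from miR-125b-5p by 1.81, again with no overlap. How far probes of such close sequences pick up each other's RNA was not tested. The plot of relatives shows these pairs beside miR-15, miR-29 and miR-107.

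**Figure D3:**
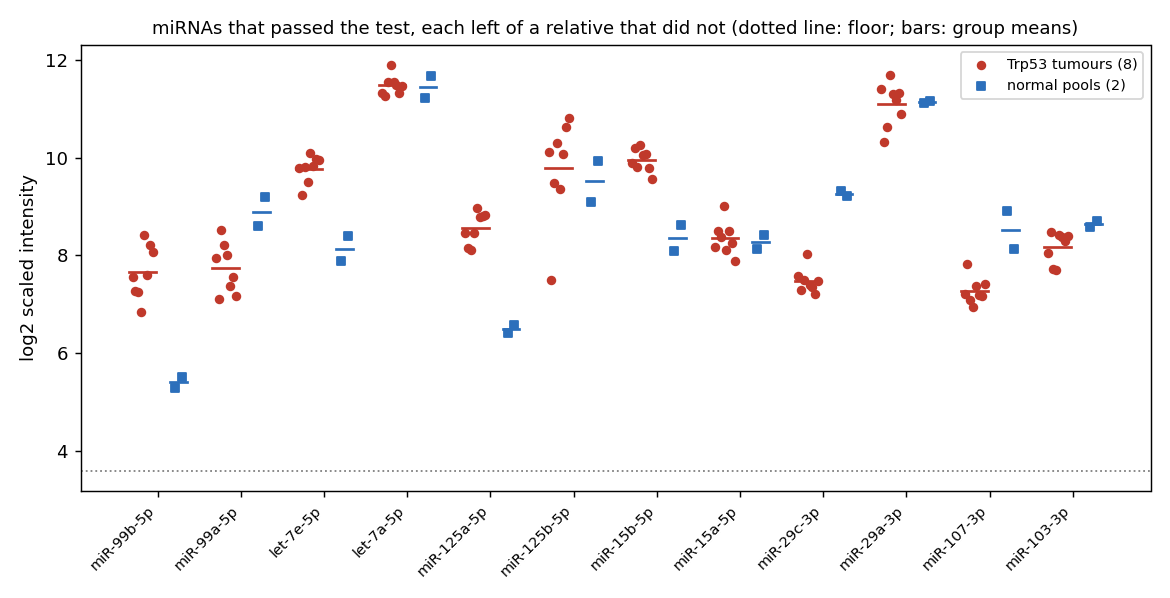
Level (log2 scaled intensity) in 8 Trp53 tumours (circles) and 2 normal pools (squares) of 6 miRNAs that passed the test, each with a relative of the same seed that did not to its right; bars are group means and the dotted line is the floor. The tumours lie above both pools for miR-99b-5p, let-7e-5p, miR-125a-5p and miR-15b-5p and below both for miR-29c-3p and miR-107-3p.

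The miR-17 cluster and its paralogs, which Myc and E2F switch on in dividing cells, included 4 miRNAs that rose, of 10 tested in a list of 13. Over all miRNAs tested 5.45% passed as higher. The median change of the 10 was 1.04, and all 10 values were above 0, as were 217 of all 330. The level of miR-18a-5p was between 4.99 and 6.79 with a median of 5.55 in the tumours and at the floor in both pools, at least 4.24-fold higher (limma adjusted p = 0.0264). The level of miR-20a-5p was between 7.36 and 9.11 with a median of 8.48 in the tumours, against 7.00 and 6.99 in the pools, and rose by 1.37 (limma adjusted p = 0.0331). Tumour 8 was the lowest of the 8 in both.

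From the paralog cluster in Mcm7, miR-93-5p was between 6.75 and 7.69 with a median of 7.21 in the tumours, against 6.11 and 6.24 in the pools, and rose by 1.04 (limma adjusted p = 0.022). Its neighbour miR-25-3p was between 7.64 and 8.55 with a median of 7.86 in the tumours, against 7.09 and 7.19 in the pools, and rose by 0.85 (limma adjusted p = 0.047). Of those that did not pass, miR-19b-3p, of the same cluster as miR-18a and miR-20a, changed by 1.25 (limma adjusted p = 0.0575) with all tumours above the pools, and miR-92a-3p by 0.78 (limma adjusted p = 0.221). Without pool 1, without pool 2 or without the intermediate tumours, 0 of the 10 passed, and with no detection filter 0 of 12 tested. Of the 10, 2 passed without tumours 1 and 4, 1 with the all-probe scaling and 5 without the spindloid tumours. The call of miR-20a-5p was also lost without tumour 5 or 6, and that of miR-25-3p without any 1 of tumours 2, 4, 5, 6 and 8.

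The level of miR-15b-5p, of a family that represses Bcl2 and cyclin genes, was between 9.57 and 10.26 with a median of 9.98 in the tumours, against 8.09 and 8.62 in the pools. All 8 tumours lay within 1 log2 unit and above the pools, and it rose by 1.60 (95% interval 1.11 to 2.10, limma adjusted p = 3.42e-05), also under each of the 30 alternatives. Its cluster partner miR-16-5p, which is also made from a second cluster with miR-15a, was between 8.86 and 9.39 with a median of 9.09 in the tumours, against 8.19 and 8.61 in the pools, and rose by 0.71 (limma adjusted p = 0.0283, lost without pool 1). The level of miR-15a-5p was between 7.90 and 9.02 in the tumours and 8.13 and 8.41 in the pools, with a change of 0.08. The family members of another cluster had values in the other direction that did not pass. The level of miR-195-5p changed by -2.09 and that of miR-497-5p by -1.82 (limma adjusted p = 0.0915 and 0.119), with all 8 tumours below both pools.

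Of the rest that rose, miR-3096b-3p was between 8.10 and 9.09 with a median of 8.70 in the tumours, against 6.43 and 7.27 in the pools, and rose by 1.81 (limma adjusted p = 0.000546). The level of miR-674-3p rose by 1.24 (limma adjusted p = 0.0156) and that of miR-28-5p by 1.04 (limma adjusted p = 0.035). The fourth, miR-677-3p, named after its values were seen, rose by 0.63 (limma adjusted p = 0.0483). The call of miR-3096b-3p did not hold without pool 1, and those of miR-674-3p, miR-28-5p and miR-677-3p did not hold without either pool. Tumours 1, 5, 6 and 7 each also carried the call of miR-28-5p, and tumours 1, 2, 4, 5, 6 and 7 each that of miR-677-3p.

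The tumours were checked against epithelial markers, and the miR-200 family, which holds epithelial cells in their state by repressing Zeb1 and Zeb2, split them. The level of miR-200c-3p was 4.98, 4.59, 9.83, 3.77, 3.60, 3.60, 3.60 and 3.60 in Trp53 tumours 1 to 8, against 7.40 and 7.13 in the pools. Tumour 3 alone was above the pools, and 4 tumours were at the floor. Its change was -2.57 (95% interval -6.38 to 1.24, limma adjusted p = 0.458). The level of miR-200b-3p was 4.89, 8.50, 9.02, 4.03, 3.66, 3.60, 3.60 and 3.60, against 7.20 and 7.15 in the pools, so that tumours 2 and 3 were above and 6 tumours below. Of the 5 members 0 passed with limma, and the median change was -2.06.

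The level of miR-429-3p was 8.47 and 8.78 in tumours 2 and 3, 4.59 in tumour 1, at the floor in the other 5, and 6.98 and 6.81 in the pools. The level of miR-141-3p was above the floor only in tumour 3, at 7.41, against 5.11 and 4.98 in the pools. The basal epithelial miR-205-5p was 8.15 in tumour 3, 4.34 in tumour 1 and at the floor in the other 6, tumour 2 included, against 7.54 and 7.66 in the pools (change -3.34, limma adjusted p = 0.138). Tumours 4 to 8 were thus at or near the floor for these epithelial miRNAs, and tumour 4, labelled adenocarcinoma, was among them. The summed log2 level of the miR-200 family ran from 5.92 to 11.10 in the Trp53 tumours, against 9.14 and 9.02 in the pools. A list of 5 other epithelial miRNAs held miR-203-3p, miR-205-5p, miR-183-5p, miR-96-5p and miR-182-5p. Its changes ran from -3.34 to 0.37 with a median of -0.44 and 1 value above 0, and 1 passed, miR-203-3p. Its summed log2 level ran from 5.92 to 9.15 in the Trp53 tumours, against 8.32 and 8.15 in the pools.

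The plot by tumour sets these beside the tumour-associated miRNAs. Tumours 2 and 3, the ones with the highest miR-200b-3p, had the lowest miR-21-5p, miR-31-5p, miR-221-3p and miR-222-3p of the 8. This did not extend to miR-210-3p, which was lowest in tumour 3 (5.61) but highest in tumour 2 (8.77). Tumour 4 stood with the spindloid and intermediate tumours for the miR-200 family, miR-21-5p and miR-31-5p. Both tumours were labelled as adenocarcinoma or its poorly differentiated form and share a title number, so a shared source, if there is one, and the pathology cannot be told apart here. The limma contrast of 3 spindloid tumours with 3 adenocarcinomas, the poorly differentiated one included, gave 0 miRNAs past the threshold, with 8 at an unadjusted p under 0.05. In that contrast miR-200b-3p differed by -3.16 and miR-31-5p by 2.51.

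**Figure D4:**
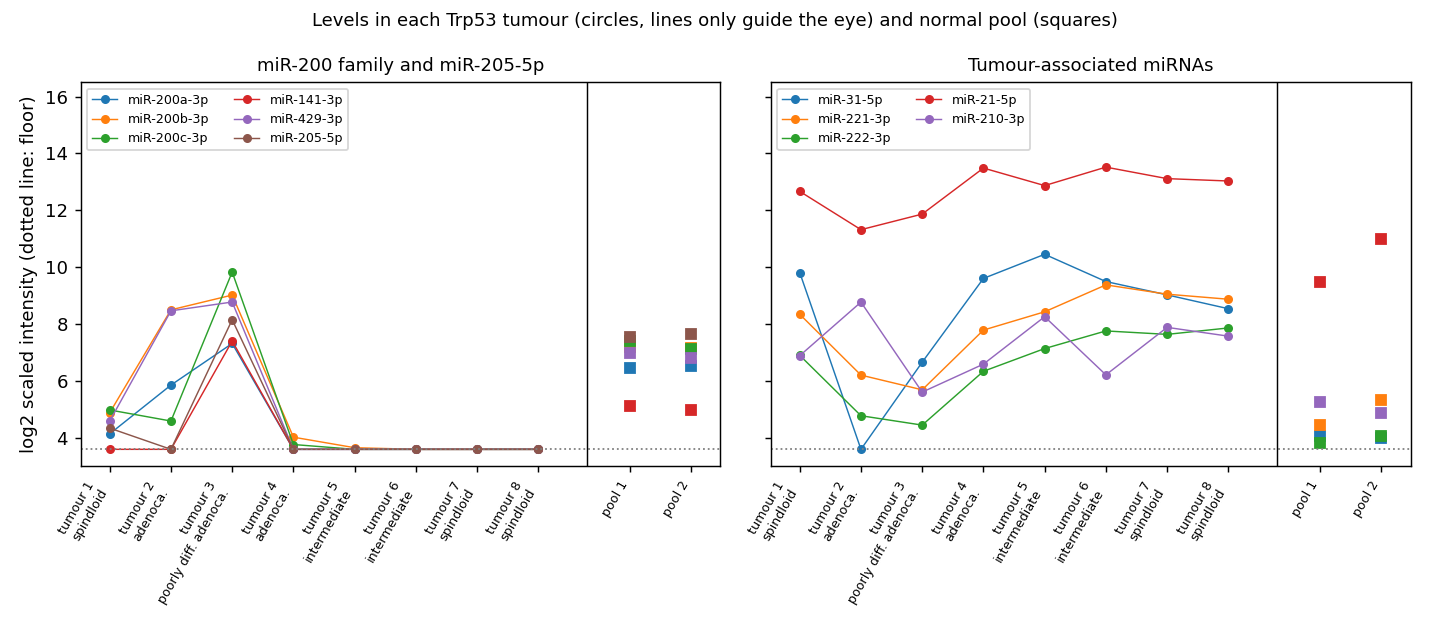
Level (log2 scaled intensity) in each Trp53 tumour (circles, joined only to guide the eye) and each normal pool (squares) of the miR-200 family with miR-205-5p (left) and of 5 tumour-associated miRNAs (right); the dotted line is the floor. Tumours 2 and 3 alone have miR-200b-3p above the pools and are the lowest tumours for miR-31-5p, miR-221-3p and miR-222-3p.

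Other groups showed no member past the threshold. Of 5 tested miRNAs that p53 induces in other settings 0 passed, with a median change of 0.25. Their miR-34a-5p, a direct p53 target, was between 6.19 and 7.49 with a median of 6.58 in the Trp53 tumours and 6.24 and 6.58 in the pools, a change of 0.25 (95% interval -0.73 to 1.22, limma adjusted p = 0.918). All 7 members of the miR-30 family, which is abundant in differentiated epithelium, had values below 0, as did 99 of all 330 miRNAs, with a median of -1.23, and 0 passed. Its miR-30a-5p was between 5.64 and 8.43 with a median of 6.56 in the tumours, against 8.69 and 8.47 in the pools (change -1.90, limma adjusted p = 0.144). Of 7 leukocyte miRNAs 0 passed, with 2 values above 0, 5 below and a median change of -0.26. The lymphocyte miR-150-5p was at the floor in 7 tumours and 4.60 and 5.89 in the pools (change -1.63), while the myeloid miR-223-3p changed by 1.18 and the activation-linked miR-155-5p by 1.28, with all 8 tumours above both pools for miR-155-5p. None of the 12 tested miRNAs of the imprinted Dlk1-Dio3 cluster passed. At an unadjusted p under 0.05 there were 83 miRNAs among the 330.

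The other tumours of the series have only these same 2 pools as normal samples, so the tumours were compared with each other. Of 330 miRNAs 14 passed (4.24%), 9 higher (2.73%) and 5 lower (1.52%) in Trp53 tumours than in the mean of the Met and MetTrp53 groups, and 4 of these were also among the 44. They were miR-125a-5p, let-7e-5p, miR-99b-5p and miR-221-3p. The level of miR-125a-5p averaged 8.57 ± 0.33 in Trp53 tumours (SD, n = 8) and lay between 8.10 and 8.98. In the other 15 it averaged 7.73 and lay between 7.00 and 8.47, a range that also held Trp53 tumours 1 to 4. The miR-125a-5p level was higher by 0.86 (95% interval 0.54 to 1.18, limma adjusted p = 0.00463). That of let-7e-5p was higher by 0.77 (limma adjusted p = 0.00909) and that of miR-99b-5p by 0.999 (limma adjusted p = 0.0134). These 3 missed the threshold with the spindloid or the intermediate tumours left out.

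The level of miR-221-3p was higher than in the other tumours by 1.90 (limma adjusted p = 0.0465), a call lost without any 1 of 6 Trp53 tumours, 1, 4, 5, 6, 7 and 8. The miR-652-3p arm was higher by 0.73 (limma adjusted p = 0.026), which was lost without tumour 6 or 8. The other arm of that hairpin, miR-652-5p, named after its values were seen, went the opposite way (limma difference -0.69, adjusted p = 0.0465), with levels between 3.60 and 4.50 in the Trp53 tumours and between 4.09 and 5.91 in the other tumours. The level of miR-148a-3p, a miRNA abundant in milk that represses the DNA methyltransferase gene Dnmt1, was between 4.04 and 8.09 with a median of 5.57 in the Trp53 tumours and between 4.82 and 10.61 in the other tumours, lower by 2.37 (limma difference -2.37, adjusted p = 0.026). That call was lost without tumour 5, 6, 7 or 8. It was 8.12 and 8.04 in the pools, where its change of -2.41 did not pass (limma adjusted p = 0.144). The muscle, fat and smooth muscle miRNAs that fell against normal gave no call in this contrast. With slide as a block 3 of the 14 remained, miR-125a-5p, let-7e-5p and miR-99b-5p. The number of calls between tumours dropped to 3 without tumour 6 or 8, 4 without tumour 5, 5 without tumour 7, 7 without tumour 1 and 9 without tumour 4.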

How the data were processed

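Per the labels, Cy3-labelled total RNA from each sample was measured on 1 Agilent miRNA array. The deposited scanner files hold spot intensity from Agilent Feature Extraction 10.7.3.1, background-subtracted and not normalised between arrays, per the file headers. The authors' deposited table holds log2 values, for which the submitters' processing notes name RMA; its column medians lay between 1.72 and 1.91, its offsets and centring are not known, and it served as an alternative.

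Processed signals without outlier spots were averaged per probe, divided by each array's 75th percentile over 221 probes above background on all arrays, floored at 0.0212 of it and averaged as log2 over a miRNA's probes. That percentile was between 356.9 and 690.3 intensity units in Trp53 tumours and between 572.5 and 837.1 in pools. The scanner called 15.5 to 20.6 percent of mouse spots above background in Trp53 tumours, against 18.0 and 21.9 percent in pools; 160 of 1122 miRNAs had a detected call on every array, 669 on no array. The number of arrays, not a read depth, limits the precision. A miRNA was tested if detected on at least 7 tumour arrays or both normal arrays. The fit used limma 3.58.1 (R 4.3.3) on 25 arrays in 4 groups, after a run on simulated data; the pathology contrast used 6 groups. The contrasts against normal rest on 2 pools and borrow the spread of the tumour groups. Folds against a group with the miRNA at the floor or undetected on every array are lower bounds, taken against the higher of that array's lowest above-background level and its own. No miRNA that passed had probes changing in opposite directions by more than 0.05.

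Named were the 15 largest changes in each direction past the threshold, members of 24 lists, and, in the other contrasts, list members and the 5 smallest adjusted p. The members and lists were chosen with earlier results of these data known. The lists not described above were those of the miR-322, miR-148, miR-23 with miR-24 and miR-27, and miR-181 families, of which 0 tested members passed against normal with limma. The alternatives changed background correction, scaling, probe summary, floor, filter, batch terms, covariates and samples. Normexp correction used the median spot signal in place of the mean signal first planned.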

Additional observations from a re-analysis of the deposited data

Results flagged for a closer look

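In 11 of 68 groups of 8 Trp53 tumour levels, 1 tumour lay far from the others by Dixon's test (critical value 0.526). Chance marks about 1 in 20 where no levels are tied. Tumour 3 stood apart for the epithelial miR-200c-3p (9.83), miR-141-3p (7.41) and miR-205-5p (8.15), and for the smooth muscle miR-145-5p (3.86). Tumour 1 stood apart for the muscle arm miR-133a-5p (4.28), for miR-378-5p (4.11) and for the lymphocyte miR-150-5p (3.70). Tumour 2 stood apart for miR-125b-5p (7.51) and miR-203-3p (3.75), and tumour 4 for miR-29c-3p (8.03) and let-7a-5p (11.90). Those below 4.3 lie near the floor, where most other tumours share 1 value and a small gap is enough. Most other tumours were at the floor for miR-141-3p and miR-205-5p too. The rate for chance does not hold for such tied levels.

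Change against normal differed between Trp53 tumours and the other tumours, by limma on the tumours themselves, for miR-221-3p (1.90), miR-99b-5p (0.999), miR-125a-5p (0.86), let-7e-5p (0.77) and miR-148a-3p (-2.37). The pools cancel in these differences.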

How the results depend on the processing

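Against normal 44 miRNAs passed, and the number was 28 with normexp correction (14 higher, 14 lower), 28 with no detection filter, 21 over miRNAs detected on all arrays, 27 without the intermediate tumours, 20 to 26 with 1 pool left out and 33 to 50 with 1 Trp53 tumour left out. The cause was not tested, except that the filter changed the number of miRNAs tested. Against the other tumours 14 passed, with 9 under normexp, 8 with a floor 2 times higher, 2 with no filter, 3 with slide and 9 with scan date as a block, 9 with only the groups compared, 4 with parity as a covariate, 0 without the spindloid or the intermediate tumours, 9 with either pool left out and 3 to 16 with 1 Trp53 tumour left out. The pathology contrast gave 0 throughout. With normexp 5 miRNAs changed sign, all near the floor: miR-126-5p (0.23), miR-22-5p (0.0934), miR-29c-5p (0.0077), miR-486-3p (0.20) and miR-499-5p (0.0624). For miR-378-3p, miR-378-5p, miR-378b, miR-143-3p, miR-133a-3p, miR-1a-3p, miR-206-3p, miR-15b-5p, miR-99b-5p, let-7e-5p and miR-125a-5p no call against normal was lost under any alternative run. Parity was tried on arrays that state it, after seeing the data also without the covariate (43 passed). With 2 pools and 8 tumours, the pools limit the comparison. No paired analysis was possible because the labels match no tumour to either Wild-Type pool. Replicate numbers were given in accession order and carry no pairing.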
